A study of Saccharomyces cerevisiae with 2 samples.

Results

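The auxotrophic marker loci of budding yeast strain BY4741 are the 4 genes URA3, LEU2, MET17 and HIS3. They were examined in 2 lists of nucleosome calls, 1 from wild-type cells and 1 from fun30 deletion cells, which lack the ATP-dependent chromatin remodelling enzyme Fun30; these are called wild type and mutant below. Both libraries came from Saccharomyces cerevisiae BY4741 grown in rich medium (YPD), fixed with paraformaldehyde and digested with micrococcal nuclease, an enzyme that cuts linker DNA and leaves nucleosomal DNA. A nucleosome call is a place where the authors' software found a nucleosome, given as a centre, a width and an occupancy signal. Calls belonged to a locus when their centre lay in a set window, at 115 to 118.5 kb of chromosome 5 for URA3, 90 to 94 kb of chromosome 3 for LEU2, 731 to 735.5 kb of chromosome 12 for MET17 and 720.5 to 724 kb of chromosome 15 for HIS3. The windows held 42 of 48019 wild-type calls and 48 of 48135 calls of the mutant. Beyond the strain name, the sources used here do not give the fun30 allele or the alleles of the marker genes in these cultures.

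BY4741 is a standard haploid laboratory strain that needs uracil, leucine, methionine and histidine in its medium. By its published genotype it lacks the reading frames of URA3, LEU2 and MET17 (MET17 is also called MET15) and carries a shorter deletion within HIS3. The genes encode enzymes of nucleotide and amino acid synthesis: URA3 the orotidine phosphate decarboxylase of pyrimidine synthesis, LEU2 the isopropylmalate dehydrogenase of leucine synthesis, MET17 the sulfhydrylase that makes homocysteine, and HIS3 the imidazoleglycerol phosphate dehydratase of histidine synthesis. Such genes are used as selectable markers on plasmids and in gene replacements, in host strains that lack them. Reads are placed on a reference sequence, and a reference that holds these genes shows a place without calls where the strain lacks the DNA. The lists themselves do not separate missing DNA from DNA in which no nucleosome was called.

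URA3, LEU2 and MET17 held 0 calls within their gene bounds in both libraries, and HIS3 held 4 calls in both. At the mean density of wild-type calls, 4.0 per kb, the gene bounds would have held 3.20 wild-type calls at URA3, 4.40 at LEU2, 5.60 at MET17 and 2.80 at HIS3. Empty windows of such lengths were also found elsewhere. When chromosomes 1 to 16 were divided into consecutive windows of the length of the gene, 0 calls in both libraries were found in 5.58% of windows for URA3 (0.8 kb), 4.43% for LEU2 (1.1 kb) and 3.96% for MET17 (1.4 kb). The gene bounds are rounded to 0.1 kb, and widening them by that much on each side left these counts unchanged at the 4 loci. Narrowing them by as much left 2 calls at HIS3 in each library, and 0 at the other loci. With 1 library per genotype there was no replicate error, and no test between genotypes was made at any locus.

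Because no call lay within the gene bounds, the stretch without calls had to be longer than the bounds at the 3 empty loci. Its length was taken from centre to centre of the calls that flank it. At URA3 it measured 1541 bp in wild type against 1535 bp in the mutant, and at MET17 4104 bp against 4020 bp. At LEU2 it measured 8666 bp against 8633 bp, so that its lower flank lay outside the window of the locus. At HIS3 the longest interval that overlapped the gene measured 401 bp in wild type against 378 bp in the mutant. The stretch was thus 1.93 times as long as the gene bounds at URA3 and 2.93 times at MET17 in wild type. It was 7.88 times as long at LEU2 and 0.573 times at HIS3. Most of the LEU2 stretch lay outside the gene, with 7.4 kb before it in wild type.

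Among 48003 intervals between neighbouring wild-type calls, LEU2 held the 14th longest, MET17 the 52nd and URA3 the 154th. In the mutant, with 48116 intervals, they ranked 12th, 51st and 173rd. An interval of 1000 bp or more made up 1.24% of all intervals in wild type and 1.23% in the mutant. In each library, 3 of the 4 loci had one. The shares of all intervals are not a background for the loci, because only the longest interval over each gene was taken. At LEU2 and MET17 such an interval also followed from the 0 calls in gene bounds of 1.1 and 1.4 kb. Of all intervals, 13.4% in the wild-type list and 14.4% in that of the mutant were at least as long as the HIS3 interval. That length depended on narrow calls. With only calls at least 100 bp wide, the longest interval over HIS3 became 1000 bp in wild type against 819 bp in the mutant. The calls at 722494 and 722591 and their partners were dropped. The wild-type call at 722933, 99 bp wide, was dropped too, while its partner at 722911, 103 bp wide, was kept.

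**Figure D1:**
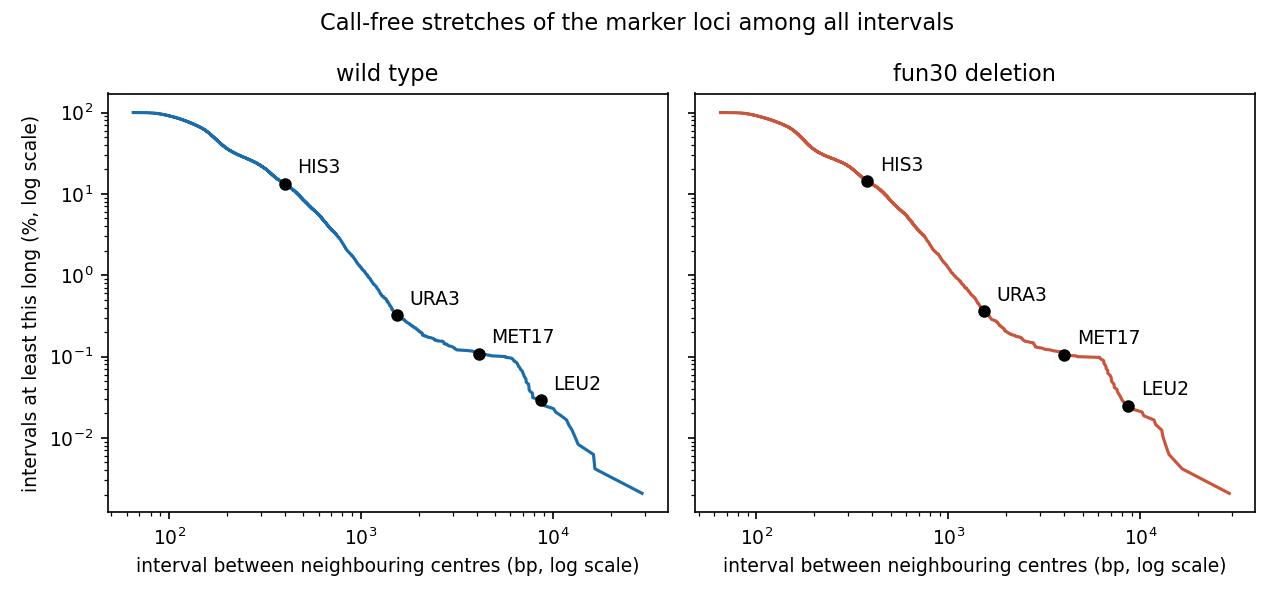
Share of intervals between neighbouring call centres that are at least as long as the length on the horizontal axis (bp), in wild type (left) and the mutant (right), both axes logarithmic. Points mark the longest interval that overlaps each marker gene; LEU2, MET17 and URA3 lie in the long tail and HIS3 lies at 401 and 378 bp.

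The stretches were empty in both libraries alike. At none of the 4 loci did either library have a call more than 73 bp inside the stretch of the other. Calls of the libraries were paired up to this distance. Among all intervals of 1000 bp or more, 45.8% of those in wild type and 43.5% of those in the mutant were empty in the other library in this sense. The marker loci with such an interval, 3 of 3, were all of that kind. Their gene bounds were empty in both libraries, and the loci were chosen with earlier results known. The shares of all intervals are therefore not a background for these loci. At FUN30 on chromosome 1, by contrast, the mutant had an interval of 3888 bp in which wild type held a run of 18 calls without partner. This place was found by searching for the longest such run in wild type, so it was picked for the property it shows.

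**Figure D2:**
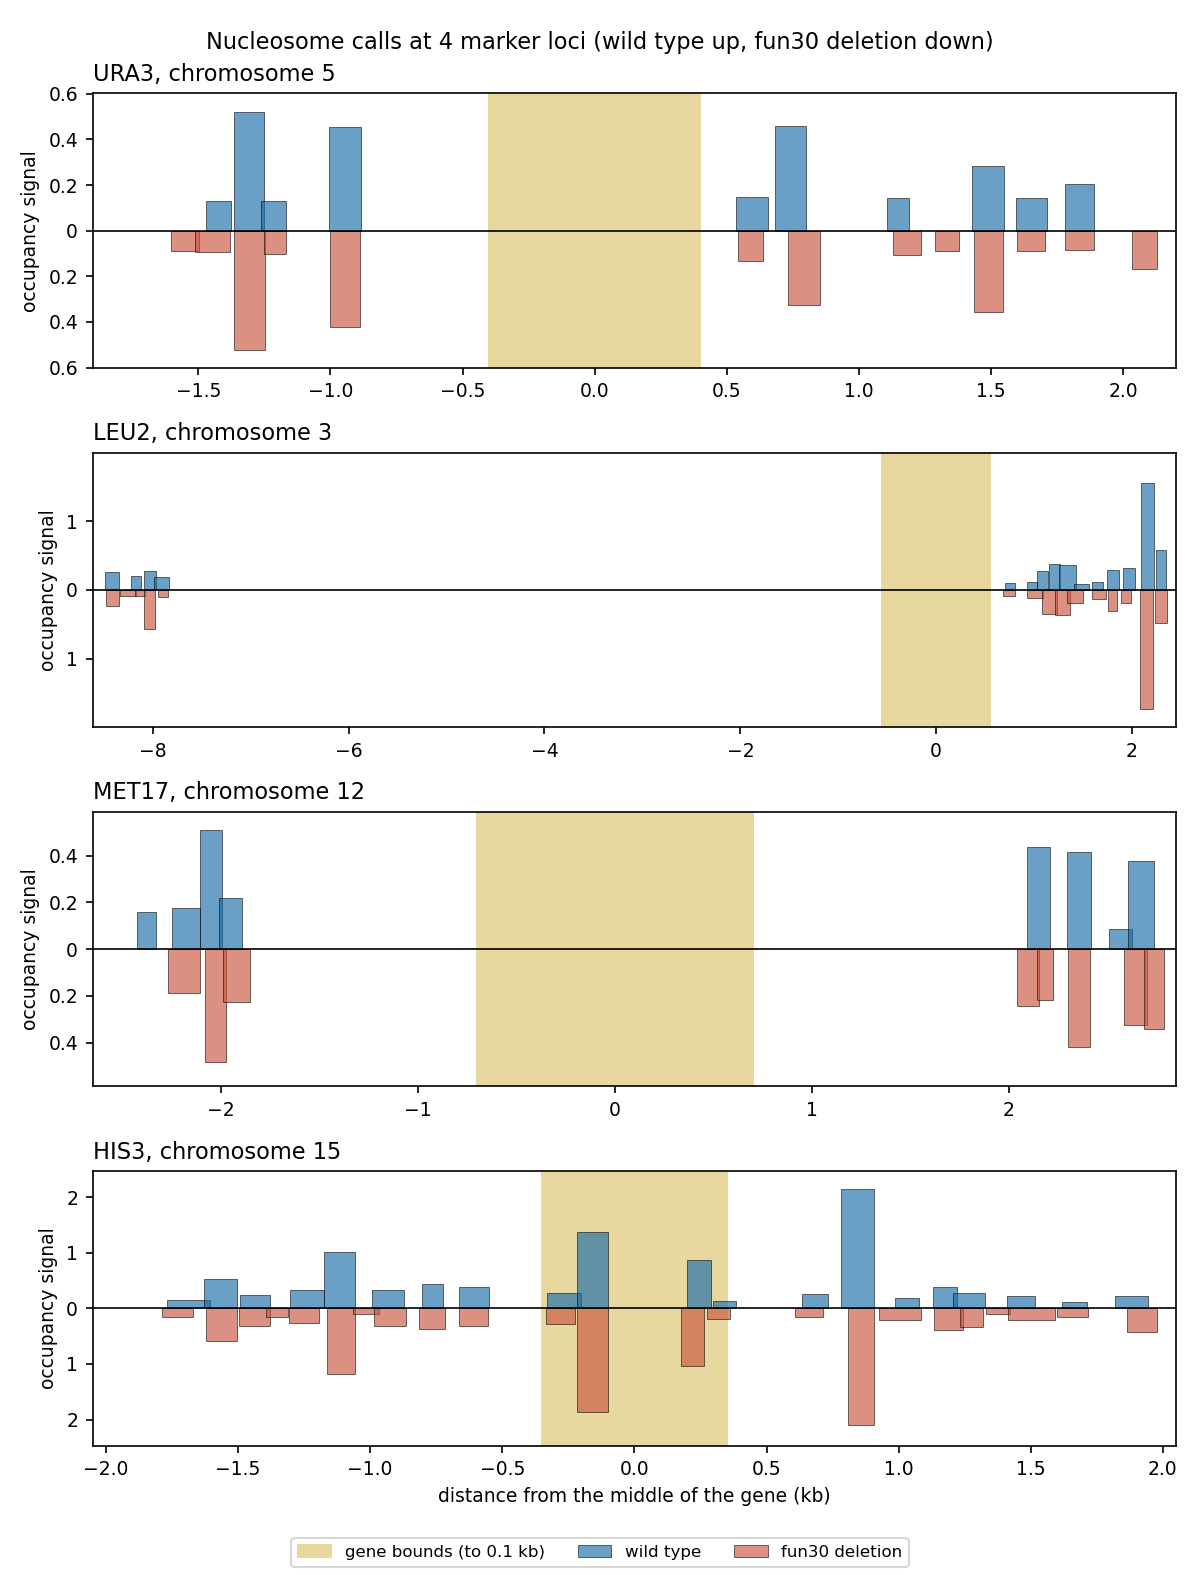
Nucleosome calls at the 4 marker loci, with wild type drawn upwards and the mutant downwards; each bar is 1 call, as wide as the call and as high as its deposited occupancy signal, and the shaded band is the gene. The horizontal axis is the distance from the middle of the gene in kb and differs between panels; the bands of URA3, LEU2 and MET17 hold 0 calls in both libraries and the band of HIS3 holds 4 in each.

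At URA3 (YEL021W) the stretch began 0.5 kb before the gene and ended 0.2 kb after it in both libraries. On the side towards GEA2, which encodes an activator of Arf GTPases, the flanking nucleosome was centred at 115654 in wild type against 115655 in the mutant, with occupancies of 0.454 and 0.421. It was well occupied, at percentile 81.6 of all wild-type calls and 79.3 in the other library. On the side towards TIM9, which encodes a chaperone of the mitochondrial intermembrane space, the flanking call was centred at 117195 in wild type against 117190 in the mutant, with occupancies of 0.147 and 0.133. This flank was weak in both libraries, at percentiles 30.4 and 24.7. The difference in stretch length between the libraries was 6 bp.

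Beyond the flanks of URA3, the next call on the TIM9 side had a wild-type centre of 117340 and occupancy of 0.461, and a mutant centre of 117392 and occupancy of 0.325. It lay 52 bp farther from the stretch in the mutant, the largest displacement among the 10 pairs of the locus. The call at 118434, at the same centre in both libraries, had a wild-type occupancy of 0.203 and a mutant occupancy of 0.0844, a log2 ratio of -1.27. The latter value is close to the lowest in the list, 0.0824, so it could hardly have been lower and still be listed. In all, 8 of the 10 pairs had a lower occupancy in the mutant, with a median log2 ratio of -0.40 against 0.01 over all 40794 pairs. Of these 8 pairs, 5 had a wild-type occupancy below 0.15.

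LEU2 (YCL018W) had the longest stretch, and most of it lay on 1 side of the gene. It began 7.4 kb before the gene in wild type and 7.3 kb in the mutant, and ended 0.2 kb after it. By order in the gene table, the next genes on that side of LEU2 are the leucine tRNA gene SUP53, the reading frames YCL019W and YCL020W, and YCL021W-A. The lower flank was centred at 83936 in wild type against 83958 in the mutant, with occupancies of 0.184 and 0.103. How much of the stretch belongs to LEU2 itself could not be read from the calls.

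Towards NFS1, which encodes the cysteine desulfurase of iron-sulfur cluster assembly, the flanking call was centred at 92602 in wild type against 92591 in the mutant. Its occupancy was 0.106 and 0.0922, at percentiles 12.6 and 5.05, which was the weakest flank among the 4 loci in both libraries. The next call was weak too, at 0.121 in each. Occupancies above the median of 0.210 were reached at the third wild-type call, at 92940 with 0.279, and at the third call of the mutant, at 93007 with 0.345.

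In the array on the NFS1 side of LEU2, 5 of 9 pairs were shifted by 20 bp or more, or 55.6% (exact 95% interval 21.2 to 86.3%). The interval includes the share of 26.6% over all pairs. Wild-type calls at 93057, 93190 and 93335 had partners at 93007, 93139 and 93267, so that 3 neighbours in a row lay 50, 51 and 68 bp closer to the stretch in the mutant. The wild-type call at 92940 had no partner, although a call of the mutant lay 67 bp away. Wild type had 4 calls from 92940 to 93335 and the mutant had 3 from 93007 to 93267, so that the partners here may be different nucleosomes. The strong nucleosome beyond, with occupancies of 1.55 and 1.74, had its wild-type centre at 94010 and its mutant centre at 93998, and lay within 20 bp of its wild-type place.

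At MET17 (YLR303W) the stretch extended to both sides, by 1.3 kb before and 1.5 kb after the gene in wild type and by 1.2 and 1.4 kb in the mutant. The gene table lists a tRNA gene on each side of MET17, between the reading frames of HRI1 and ACO1, and the reading frame YLR302C next to it. Towards HRI1 the flanking call was centred at 731247 in wild type against 731277 in the mutant, with occupancies of 0.218 and 0.226. Both were near the median of all calls, at percentiles 51.7 and 53.8.

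The other flank of MET17, towards ACO1, which encodes the aconitase of the citric acid cycle, differed most in position between the libraries. Wild type had 1 call there, centred at 735351, 116 bp wide and with occupancy 0.435. The mutant had calls at 735297 and 735386, with occupancies of 0.242 and 0.217 and widths of 112 and 81 bp, and the wild-type centre lay between them. The call at 735386 was the partner of the wild-type call and the call at 735297 had none. The stretch at MET17 was 84 bp shorter in the mutant, 30 bp of it on the HRI1 side and 54 bp on the ACO1 side, the largest length difference among the 4 loci. The next nucleosome was centred at 735557 in wild type against 735558 in the mutant, with occupancies of 0.415 and 0.416.

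HIS3 (YOR202W) differed from the other loci in that its gene bounds were populated. In wild type the 4 calls were at 721984, 722093, 722494 and 722591, with occupancies of 0.270, 1.38, 0.863 and 0.135. The mutant centres were 721971, 722092, 722470 and 722568, and the occupancies were 0.284, 1.86, 1.04 and 0.194. The call at 722093 was at percentile 98.0 of wild-type calls, and its partner at percentile 99.1. The call at 722494 was at percentile 94.3 and its partner at 96.2. The interval without calls within HIS3 was therefore bordered by strongly occupied nucleosomes on both sides, unlike the stretches of the other loci. All 4 calls had a higher occupancy in the mutant, with log2 ratios from 0.07 to 0.53, each less than 2-fold. Among all 19 pairs of the HIS3 window, 11 were higher in the mutant and 8 lower.

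Other long intervals lay on both sides of the one within HIS3, each separated from it by a short interval. Each reached into the gene bounds, because its nearer end was a call counted within the gene. The short ones measured 109 and 97 bp in wild type, and 121 and 98 bp in the mutant. The long interval towards the divergent gene MRM1 (a methyltransferase for mitochondrial ribosomal RNA) ran from 721643 to 721984 in wild type. It measured 341 bp there and 330 bp in the mutant. The long interval towards the RNA helicase gene DED1 measured 342 bp in wild type against 343 bp in the mutant. The interval within the gene exceeded these long intervals by 60 and 59 bp in wild type, and by 48 and 35 bp in the mutant. That it was the longer one followed from its choice as the longest interval overlapping the gene bounds, which these also overlap. Between facing edges of the calls it measured 297 bp in wild type against 276 bp in the mutant.

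The interval within HIS3 was 23 bp shorter in the mutant: its DED1-side flank lay 24 bp lower and its MRM1-side flank 1 bp lower. Among calls at or above the median occupancy, the longest interval that overlapped the gene was another one, between the calls at 722494 or 722470 and the next call towards DED1, and it was longer in the mutant, at 638 bp against 439 bp. The displaced flank did not stand alone. The calls at 722494, 722591 and 722933 had partners 24, 23 and 22 bp lower, so the distances between them were kept to within 1 bp. Over the genome there were 22362 triples of pairs that were neighbours in both libraries, whatever their shift. Of these, 0.979% were shifted by 20 bp or more in 1 direction. Those whose shifts also lay within 2 bp of each other made up 0.0358%, or 8 triples. The triples at HIS3 and at LEU2 were singled out after their values were seen, and their shares of the genome are given as description only. The strong DED1 nucleosome beyond, centred at 723093 in wild type against 723108 in the mutant, had occupancies of 2.15 and 2.09 and was displaced by 15 bp the other way.

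Over the 4 loci together, 16 of 42 pairs were shifted by 20 bp or more, or 38.1% (exact 95% interval 23.6 to 54.4%), against 26.6% of all pairs. The interval includes the genome-wide share. It covers counting error over calls only, and calls of 1 library are not replicates of a genotype. By locus, 3 of 10 pairs were shifted at URA3, 5 of 9 at LEU2, 2 of 4 at MET17 and 6 of 19 at HIS3. The median displacement was 12.5 bp, against 9 bp over all pairs. Of the shifted calls, 6 lay at higher and 10 at lower coordinates in the mutant. The 10 include the 3 neighbours near LEU2 whose partners may be different nucleosomes. These directions were not compared with those over all pairs.

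Occupancy differed by 2-fold or more within 3 of the 42 pairs, or 7.14% (1.5 to 19.5%), against 4.87% of all pairs. These were the pair at 118434 near URA3, the MET17 flank at 735351, where the ratio of wild type to the mutant was 2.01, and the LEU2-side call at 93335, with a wild-type occupancy of 0.0895 and a mutant occupancy of 0.185. The mutant also had a call without partner at this MET17 flank, at 735297 with occupancy 0.242, which the ratio leaves out. At HIS3 none of 19 pairs differed by 2-fold or more. Occupancy was higher in the mutant in 19 of the 42 pairs and lower in 23. These counts, and those by locus, were not compared with the counts over all pairs.

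**Figure D3:**
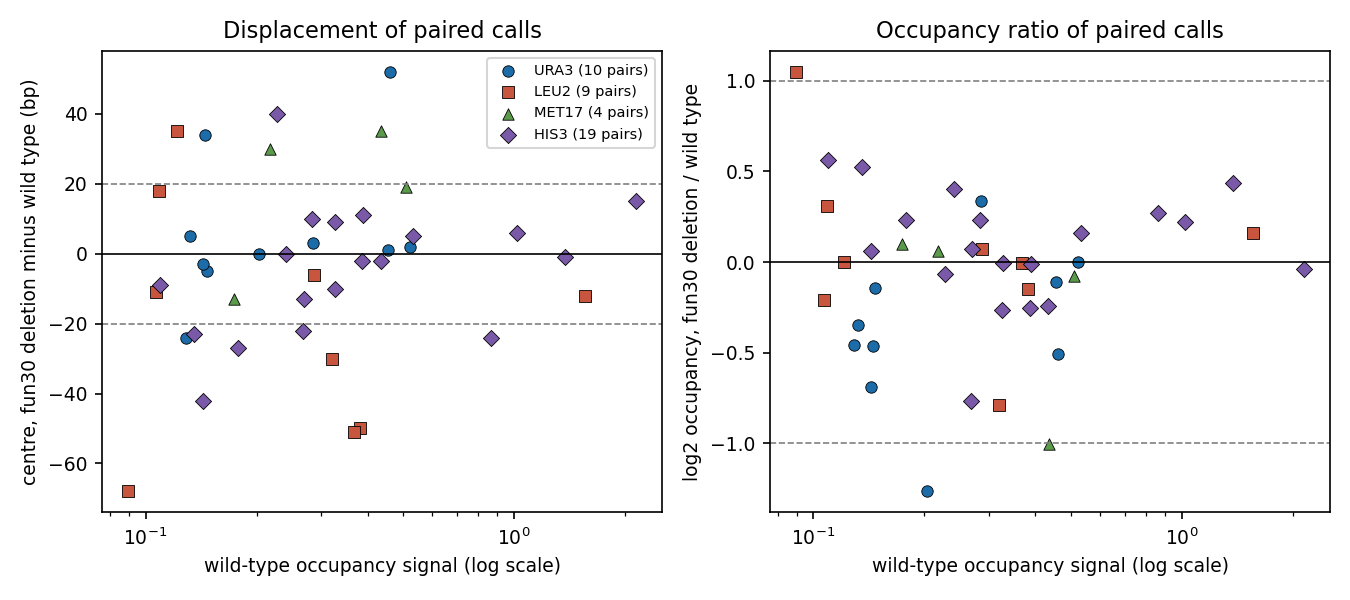
Paired calls at the marker loci against the wild-type occupancy signal (log scale). The left panel shows the displacement of the centre in bp, with dashed lines at 20 bp either way; the right panel shows the log2 ratio of occupancy, with dashed lines at a 2-fold difference. Each point is 1 of 42 pairs; 16 lie on or beyond the lines on the left and 3 on the right.

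Calls seen in 1 library only numbered 7, with 1 wild-type call and 6 mutant calls. That is 1 of 42 wild-type calls against 15.0% of all wild-type calls, and 6 of 48 calls of the mutant against 15.2%. None of the 7 lay within the bounds of a marker gene. The wild-type call was the one at 92940 near LEU2. In the mutant the calls were at 115050 and 117933 near URA3, with occupancies of 0.0911 and 0.0879, at 735297 beside MET17, and at 720898, 721234 and 723626 near HIS3, with 0.155, 0.101 and 0.107. Except at 92940 and 735297, these occupancies were below the median of their library. The call at 117933 was the farthest from the other library, 155 bp from its nearest call there.

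Close spacing within the windows was compared with the genome. Neighbouring centres were under 120 bp apart in 9 of 38 wild-type intervals, or 23.7% (11.4 to 40.2%), against 19.6% of all wild-type intervals. In the mutant it was 11 of 44, or 25% (13.2 to 40.3%), against 18.9%. Both intervals include the share of the genome. Calls so close cannot all be whole nucleosomes side by side on 1 DNA molecule. At HIS3 the closest neighbours were 89 bp apart in wild type against 84 bp in the mutant.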

How the data were processed

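Nucleosomal DNA of 2 libraries, 1 per genotype, was sequenced. The submitters' processing notes name Bowtie 0.12.7, a read aligner. The sources used here do not give the caller, its settings, the genome build or the handling of reads that match several places. Each deposited list holds chromosome, centre, width and an occupancy signal, per the file headers. The deposited signal is not a read count, its quantiles nearly coincide between files, and the depth is unknown.

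The loci and their gene bounds, and the lists compared, were chosen with earlier results of these data known. Around the loci, the calls were displaced by -21.0 to -6.5 bp (median -13.5) from reading frame starts of assembly R64, estimated from the nearest 100, 150 and 200 frames on both strands. At LEU2 the settings of 150 and 200 frames both used 63 frames on the plus strand and 86 on the minus strand. Apart from this estimate, R64 gave names and gene order only. Coordinates are printed as deposited.

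Calls of chromosomes 1 to 16 were paired as mutual nearest centres at most 73 bp apart, and a shift was 20 bp or more. A pair belonged to a locus when either centre lay in its window. The stretch was the longest interval between neighbouring calls that overlapped the gene bounds. All 4 genes, their flanks, calls within the genes and calls in 1 library only were named by rule; other calls were named after their values were seen. Exact intervals are Clopper-Pearson at 95%. Scripts (Python 3.11.15, pandas 2.3.3, SciPy 1.17.1) were tested on simulated data. Other pairing distances, thresholds, call filters and gene bounds were tried.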

Additional observations from a re-analysis of the deposited data

How the results depend on the processing

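There was 1 library per genotype, so none could be left out, and call depth is unknown. No paired analysis was possible because each genotype had 1 library. The stretches at URA3, LEU2, MET17 and HIS3 became 1419, 8540.5, 3989.5 and 297 bp in wild type, and 1429.5, 8518.5, 3896 and 276 bp for the mutant, between call edges, as subtracting call widths requires. With calls at or above the median occupancy they became 1686 bp (URA3), 9120 bp (LEU2) and 439 bp (HIS3) in wild type, against 1737, 9189 and 638 bp in the mutant. With calls at or above the lower quartile, LEU2 became 9004 bp in wild type against 9189 bp in the mutant, and URA3 1737 bp in the latter. With calls at least 100 bp wide, LEU2 became 8889 bp and HIS3 1000 bp in wild type, and URA3 1737 bp and HIS3 819 bp in the mutant. These lengths follow from the removal of weak or narrow flanking calls. The shifted share of 38.1% became 61.9% when shifts counted from 10 bp and 14.3% when they counted from 40 bp, and stayed within its interval with other pairing distances, at 28% for pairs at or above the median occupancy, and with any 1 locus left out (33.3 to 43.5%). The share with a 3-fold occupancy difference was 0%. The 7 calls in 1 library only became 13 with pairing up to 50 bp, 2 at or above the median occupancy and 1 when only calls more than a nucleosome's length of DNA from any call of the other library counted. With gene bounds narrowed by 0.1 kb on each side, HIS3 held 2 calls in each library.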
